A study of Mus musculus with 57 samples.

Results

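The genes described here are 10 components of the circadian clock: the activators Clock and Npas2, the repressors Per2, Per3, Cry1 and Cry2, the nuclear receptors Nr1d1 and Nr1d2 (REV-ERBα and REV-ERBβ), and the PAR bZIP transcription factors Dbp and Tef. They were picked out by symbol, from a list drawn up with earlier results of these data known, and all 10 were found in both deposited count tables, among 50565 genes in one and 53278 in the other. RNA came from CD11b+ cells isolated from mouse brain, labelled as microglia, of wild-type (WT) mice and littermates lacking P2RY12 (KO), a purinergic receptor of microglia. One table, called the sex experiment here, held 18 animals by sex and genotype, namely 4 WT and 5 KO males and 4 WT and 5 KO females; their own labels name no treatment, although a protocol text common to all libraries mentions the LPS injection. The other, called the LPS experiment, held 33 libraries labelled by genotype and by treatment, either LPS (lipopolysaccharide, a bacterial product given intraperitoneally at 1 mg/kg) or "ns", which the labels do not spell out. Sex of the animals in the LPS experiment, the time between injection and collection, and the time of day of collection are not given in the sources used here. The way the KO allele was made is likewise not given there.

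The mammalian clock is a transcriptional feedback loop. CLOCK, or its relative NPAS2, pairs with BMAL1 and activates genes that carry E-box elements, among them the Per and Cry genes, whose proteins then repress that activity. CLOCK and BMAL1 also drive Nr1d1 and Nr1d2, whose proteins repress Bmal1 through ROR elements, and Dbp, whose protein, like TEF and HLF, activates genes through D-boxes that NFIL3 can occupy as a repressor.

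Several libraries of the LPS experiment had to be shown apart before any result was read. Among WT libraries, those with library number 2 in their names went against their treatment labels. Levels are in CPM, the reads of a gene relative to the scaled size of its library. The acute-phase gene Saa3 was at 1814 CPM in the library labelled WT ns 1 and at 2426 CPM in that labelled WT ns 5. It was at 1.61 CPM in the one labelled WT LPS 1 and at 2.98 CPM in the one labelled WT LPS 6. In the other WT libraries Saa3 was at 1.53 to 64.7 CPM at ns and at 1417 to 9329 CPM after LPS. These 4 libraries were fitted as groups of their own. Libraries WT LPS 8 and WT LPS 9 differed from each other far less than any other pair (chi-square per degree of freedom 1.86, against 8.32 or more) and were summed into 1 sample, which left 32 samples: 6 WT ns, 6 WT LPS, 8 KO ns, 8 KO LPS and 2 in each WT group of number 2. Mitochondrially encoded genes held 2.69% to 8.55% of the counts in 6 libraries, against at most 1.81% in the other 27. These 6 were WT ns 5, WT LPS 6, WT LPS 7, KO ns 5, KO ns 6 and KO LPS 5, and results are given with and without them. Of these, WT ns 5 and WT LPS 6 are also among the WT libraries of number 2. Libraries fell into 2 sets by the block number in their names. Set 1 had 2087 to 15829 counts of the Y-linked gene Ddx3y and 19 to 260 of the X-linked gene Xist. Set 2 had 0 to 13 and 10363 to 66802. By these counts set 1 was like the labelled males of the sex experiment and set 2 like the labelled females. Set and sex cannot be told apart here, and all 6 libraries high in mitochondrial counts were in set 2. Set was a term of the fits to both sets together, unless stated otherwise. Total counts per library ran from 15.9 M to 168 M in the LPS experiment and from 58.5 M to 319 M in the sex experiment. P2ry12 was at 3536 to 5476 CPM in the 6 WT ns samples and at 588 to 1169 CPM in the 8 KO ns samples. Summed microglial markers (Cx3cr1, Tmem119, Csf1r and Sall1) were present in every sample, at 11144 to 18257 CPM in the sex experiment and 4962 to 22848 CPM in the LPS experiment. In the 6 libraries high in mitochondrial counts they ran from 4962 to 12253 CPM, against 10649 to 22848 CPM in the other 26 samples.

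Promoter windows from RefSeq (build GRCm38.p6, 300 bases, from 250 before to 50 after a gene's start) were found for 9 of the 10 genes. They were searched on both strands for the E-box CACGTG, for the D-box TTATGTAA or TTACGTAA, and for the ROR element core TAGGTCA or TGGGTCA. Per3 held 2 D-boxes, which start 205 and 158 bases before the gene's start, and 1.06% of 32851 windows of the same length held at least 1. An E-box was present in Cry1 and in both Tef windows, against 7.15% of all windows, and no window of the 9 genes held the ROR core, which 6.45% of all windows did. The stretches with a match are shown 5′ to 3′ on the gene's strand because they belong to 2 genes that fell with LPS, Per3 and Tef, and to 1 that was not called, Cry1. Capitals mark the motif, and a match of letters describes the sequence only.
Per3, chr4:151044786-151044900, minus strand: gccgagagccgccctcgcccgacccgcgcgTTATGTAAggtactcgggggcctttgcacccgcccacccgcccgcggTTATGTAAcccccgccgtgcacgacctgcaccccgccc
Tef, chr15:81802516-81802581, plus strand: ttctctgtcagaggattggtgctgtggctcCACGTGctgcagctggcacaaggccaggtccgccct
Tef, chr15:81811246-81811311, plus strand: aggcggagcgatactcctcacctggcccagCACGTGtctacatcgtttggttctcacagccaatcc
Cry1, chr10:85185079-85185144, minus strand: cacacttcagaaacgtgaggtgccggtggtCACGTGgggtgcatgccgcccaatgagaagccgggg

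The first question was how the clock genes differed between LPS and ns within each genotype. In both genotypes Dbp, Nr1d2, Nr1d1, Tef and Per3 fell with LPS, by 4.16-fold to 11.1-fold in KO and by 4.89-fold to 7.00-fold in WT. Clock, Cry1, Cry2 and Per2 were not called in either genotype with all libraries in the fit. Of 9 genes tested (Npas2 was below the filter on low counts), 5 were lower and 0 higher in KO, and 5 lower and 0 higher in WT. Across all 17954 genes tested, edgeR's quasi-likelihood test with Benjamini-Hochberg adjustment called 26.2% in KO, made up of 14.2% lower and 11.9% higher, and 28.1% in WT, made up of 14.6% lower and 13.5% higher. The median log2 fold change of the 9 genes was -2.06 in KO and -2.29 in WT, beside medians of -0.03 and -0.02 over all genes tested. In RNA from sorted tissue, fewer cells of a type and less RNA per cell cannot be told apart. The time of day of collection is not given for either treatment. A difference in that time between LPS and ns samples cannot be told apart from a response to LPS.

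**Figure D1:**
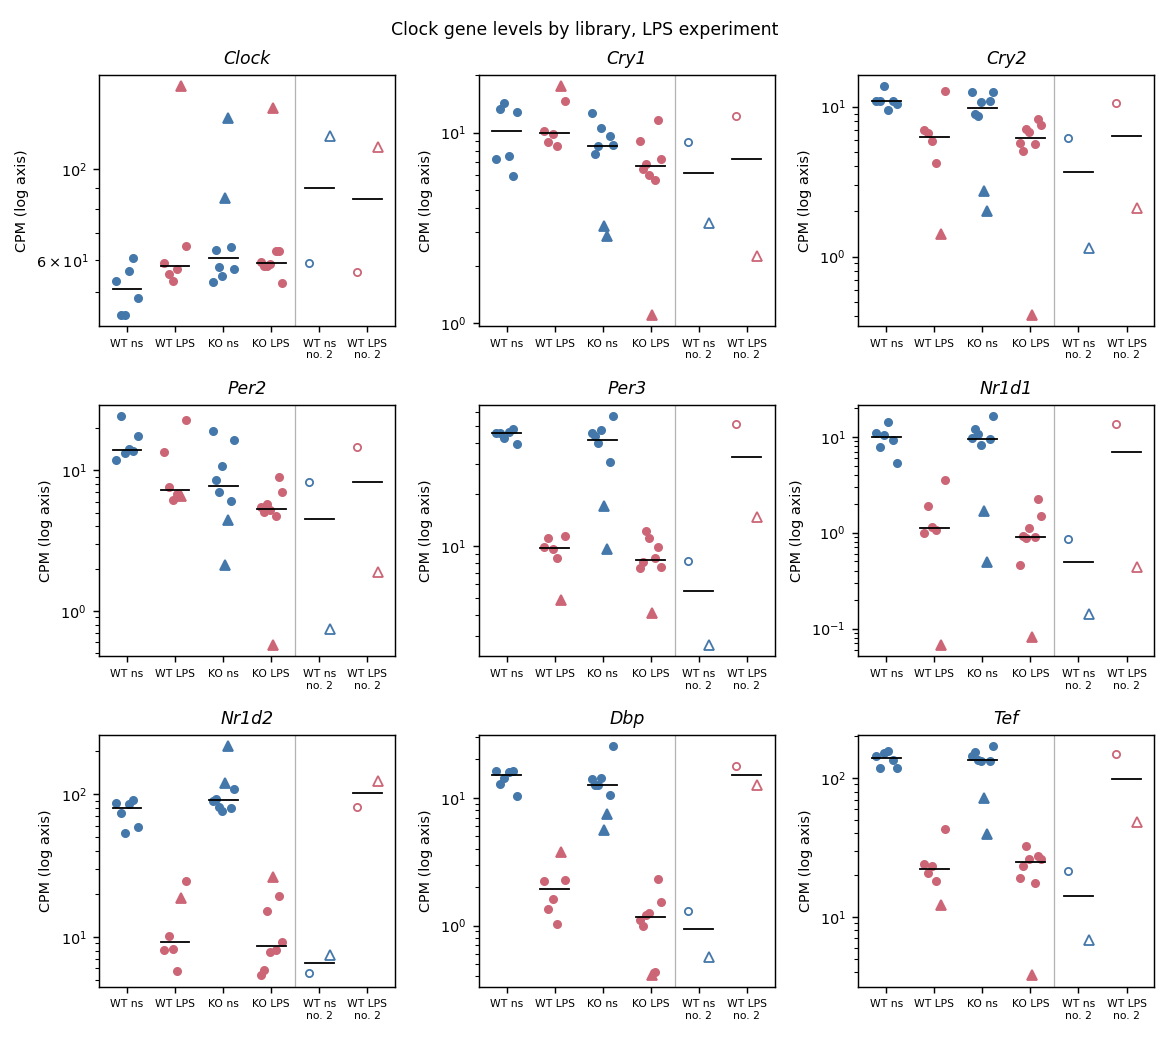
Levels of 9 clock genes in the LPS experiment in CPM on log axes, 1 point per sample, with a bar at each group's median; triangles are the 6 libraries high in mitochondrial counts and open symbols the WT libraries of number 2. Dbp and Nr1d2 separate LPS from ns in both genotypes with no overlap, whereas Clock, Cry1 and Per2 overlap, and the WT libraries of number 2 stand in the reverse order of their labels for Dbp, Nr1d2, Per3 and Tef.

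Dbp (chromosome 7, 45354658 to 45359579 in GRCm39) encodes a PAR bZIP activator whose transcript is a direct output of CLOCK and BMAL1. Its lowest, median and highest levels were 5.61, 12.6 and 25.3 CPM over the 8 ns samples of KO mice, and 0.409, 1.16 and 2.31 CPM over their 8 LPS samples. The same order of values is used for the genes that follow. In WT it was 10.4, 15.2 and 16.3 CPM in the 6 ns samples and 1.02, 1.93 and 3.78 CPM in the 6 LPS samples. Every LPS sample was below every ns sample of its genotype. The log2 fold change was -3.47 ± 0.34 (SE, adjusted p = 6.8e-09 by edgeR) in KO and -2.81 ± 0.38 (adjusted p = 2e-06) in WT. Dbp overlaps Sphk2 on the opposite strand by 693 bases, and Sphk2 held 369% of the counts of Dbp in the sex experiment. In the LPS experiment Sphk2 itself had log2 fold changes of 0.52 ± 0.32 in KO and 0.35 ± 0.37 in WT, neither called. Whether reads were assigned by strand is not given in the sources used here.

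Tef (chromosome 15, 81686874 to 81711064), a second PAR bZIP factor of the same family, stood at 39.8, 134 and 169 CPM in KO mice at ns and at 3.81, 24.8 and 32.2 CPM after LPS. In WT the values were 118, 140 and 156 CPM at ns and 12.2, 22.1 and 42.9 CPM after LPS. The groups did not overlap in either genotype, and the lowest KO ns value, 39.8 CPM, was in KO ns 6, a library high in mitochondrial counts. Tef fell by 2.48 ± 0.33 on the log2 scale in KO (adjusted p = 1.2e-06 by edgeR) and by 2.53 ± 0.38 in WT (adjusted p = 8.9e-06).

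Nr1d2 (chromosome 14, 4230549 to 4265640) encodes REV-ERBβ, a heme-binding repressor. In KO it was 76.7, 91.2 and 216 CPM at ns and 5.38, 8.62 and 26.1 CPM after LPS, and in WT 53.5, 79.6 and 90.6 CPM at ns and 5.77, 9.13 and 24.6 CPM after LPS. No LPS sample reached an ns sample of its genotype. The log2 fold changes were -3.18 ± 0.29 in KO (adjusted p = 2.1e-09 by edgeR) and -2.65 ± 0.33 in WT (adjusted p = 5.5e-07).

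Nr1d1 (chromosome 11, 98658758 to 98666233), which encodes the related repressor REV-ERBα, was low in counts. In KO it stood at 0.5, 9.51 and 16.4 CPM at ns and at 0.0819, 0.910 and 2.22 CPM after LPS. In WT it stood at 5.26, 9.82 and 14.1 CPM at ns and at 0.0675, 1.11 and 3.51 CPM after LPS. The WT groups did not overlap. In KO the samples KO ns 5 and KO ns 6 lay within the LPS range, and without the libraries high in mitochondrial counts the lowest KO ns value was 8.28 CPM against a highest KO LPS value of 2.22 CPM. Nr1d1 fell by 3.04 ± 0.64 in KO (adjusted p = 0.00057 by edgeR) and by 2.68 ± 0.72 in WT (adjusted p = 0.0056) on the log2 scale. Thra overlaps Nr1d1 on the opposite strand by 1075 bases and held 183% of its counts in the sex experiment. In the LPS experiment the log2 fold changes of Thra were -0.67 ± 0.53 in KO and -0.99 ± 0.61 in WT, neither called.

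Per3 (chromosome 4, 151081475 to 151129167), a period gene that is dispensable for the core oscillation, was at 9.63, 41.7 and 57.1 CPM in KO mice at ns and at 4.09, 8.29 and 12.2 CPM after LPS. In WT it was at 39.5, 45.7 and 47.8 CPM at ns and at 4.86, 9.74 and 11.4 CPM after LPS. WT groups did not overlap, and in KO the overlap came from 1 sample, KO ns 6. The fall was 2.06 ± 0.27 in KO (adjusted p = 1.2e-06 by edgeR) and 2.29 ± 0.32 in WT (adjusted p = 2.9e-06) on the log2 scale.

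The remaining repressors had smaller differences and wider spread. Per2, a core repressor that is also induced by acute signals, was at 2.13, 7.81 and 19.2 CPM in KO at ns and 0.573, 5.36 and 8.97 CPM after LPS. The KO difference was -0.76 ± 0.47 on the log2 scale (adjusted p = 0.26 by edgeR). In WT it was at 11.8, 14.1 and 24.3 CPM at ns and 6.15, 7.25 and 22.8 CPM after LPS, a log2 fold change of -0.54 ± 0.53 (adjusted p = 0.49). The groups overlapped in both genotypes, in WT through WT LPS 2 at 13.6 CPM and the summed sample of WT LPS 8 and WT LPS 9 at 22.8 CPM. Cry2, which encodes a cryptochrome repressor, had log2 fold changes of -0.55 ± 0.43 in KO and -0.79 ± 0.50 in WT, and its relative Cry1 had -0.20 ± 0.35 and 0.25 ± 0.40. Without the 6 libraries high in mitochondrial counts, Cry2 fell in both genotypes, by 0.68 ± 0.18 in KO (adjusted p = 0.0024 by edgeR) and by 0.57 ± 0.19 in WT (adjusted p = 0.015), and Per2 fell in KO, by 0.91 ± 0.31 (adjusted p = 0.019). Cry1 was called in neither genotype there, with values of -0.30 ± 0.21 and 0.05 ± 0.23. D930015M05Rik overlaps Cry2 on the opposite strand by 23417 bases and held 48.1% of its counts in the sex experiment. Gm35591 overlaps Per2 on the opposite strand by 10520 bases and held 13.0% of its counts there.

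Among the activators, Clock, the DNA-binding partner of BMAL1, ran from 53.0 to 134 CPM at ns and 52.8 to 141 CPM after LPS in KO, and from 44.1 to 60.7 CPM at ns and 53.5 to 160 CPM after LPS in WT. Its values above 64.8 CPM in these 4 groups were all in libraries high in mitochondrial counts (KO ns 5, KO ns 6, KO LPS 5 and WT LPS 7). The log2 fold change was -0.03 ± 0.20 in KO (adjusted p = 0.94 by edgeR) and 0.50 ± 0.24 in WT (adjusted p = 0.12). Without those libraries Clock rose in WT, by 0.21 ± 0.07 (adjusted p = 0.016), and had 0.05 ± 0.07 in KO. Ube2n-ps1 overlaps Clock on the same strand by 1213 bases and held 16.3% of its counts in the sex experiment. Npas2 had 0 to 13 counts per sample in the LPS experiment, and no fold change is given for it.

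Leaving out the 6 libraries raised the number of called genes to 7 in each genotype, beside 49.9% of 18282 genes tested in KO and 49.6% in WT. The 5 genes called with all libraries were called again, with log2 fold changes of -3.55 ± 0.27 for Dbp, -3.31 ± 0.30 for Nr1d1, -3.14 ± 0.30 for Nr1d2, -2.52 ± 0.16 for Tef and -2.20 ± 0.13 for Per3 in KO. In WT these were -3.01 ± 0.30, -2.45 ± 0.32, -2.68 ± 0.33, -2.38 ± 0.18 and -2.12 ± 0.15, in the same order. In KO the standard error went from 0.64 to 0.30 for Nr1d1, from 0.33 to 0.16 for Tef and from 0.27 to 0.13 for Per3, each of which had its lowest KO ns value in KO ns 6. Within set 1 alone 7 genes were called in each genotype, beside 40.6% of all genes in KO and 38.4% in WT. Within set 2 alone 3 were called in KO (Dbp, Nr1d2 and Tef) and 1 in WT (Per3), beside 3.76% and 2.77%, and the log2 fold changes of the 5 genes there lay between -3.29 and -1.84 in KO and between -2.58 and -2.21 in WT.

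**Figure D2:**
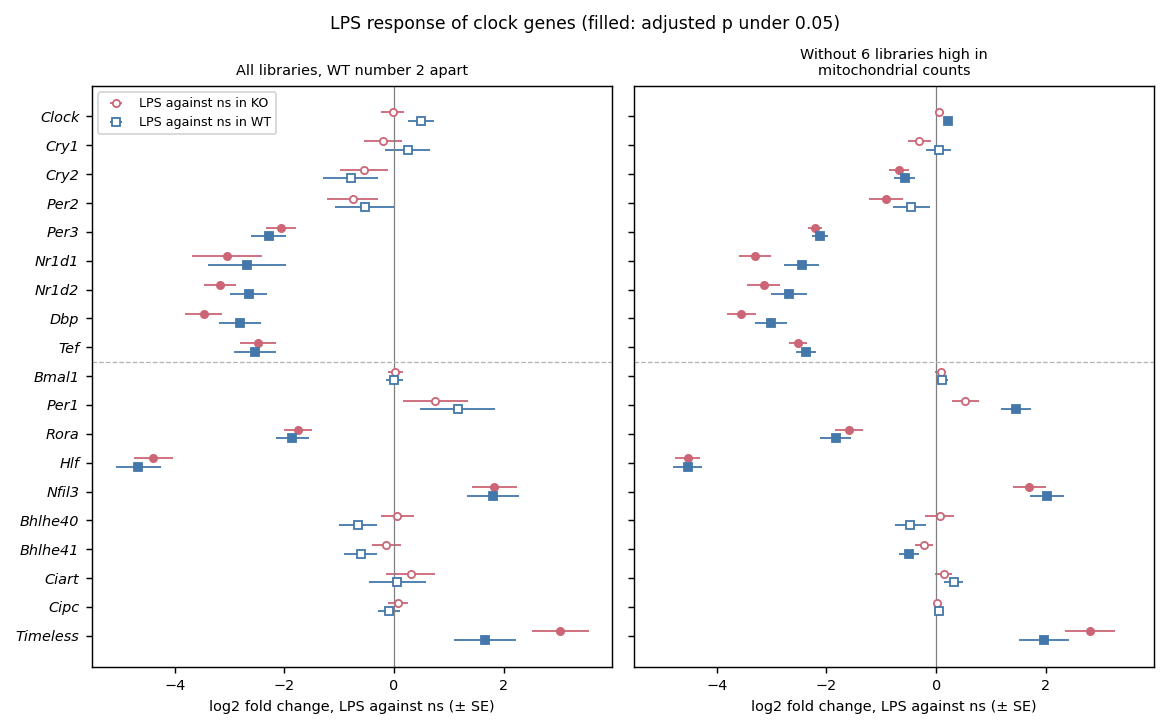
Log2 fold change of LPS against ns with its standard error for 9 clock genes (above the dashed line) and 10 other clock genes (below it), in KO (circles) and WT (squares); the left panel has all libraries with WT number 2 apart, the right panel leaves out the 6 libraries high in mitochondrial counts, and filled symbols have an adjusted p under 0.05. Dbp, Nr1d1, Nr1d2, Tef, Per3, Hlf and Rora lie below 0 in both genotypes and Nfil3 and Timeless above it.

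Markers of other cell types were summed in the same samples. Neutrophil markers ran from 238 to 9169 CPM at ns and 878 to 3940 CPM after LPS in KO, and from 268 to 13664 CPM and 1493 to 12382 CPM in WT. These ranges overlapped, and 0 of the 5 neutrophil genes were called in either genotype by edgeR, with median log2 fold changes of -0.39 in KO and -0.20 in WT. An unadjusted p under 0.05 was reached by 1 of them in KO (Camp) and 2 in WT (Camp and Ngp), and DESeq2 called 1 in each genotype, Camp, as lower after LPS. Summed border macrophage markers had medians of 303 and 134 CPM in KO ns and KO LPS and of 363 and 113 CPM in WT ns and WT LPS, and endothelial markers ran from 59.7 to 92.1 CPM at ns and 22.4 to 58.0 CPM after LPS in KO, and from 45.6 to 57.0 CPM at ns and 14.2 to 33.7 CPM after LPS in WT. Summed microglial markers had medians of 17958 CPM at ns and 14982 CPM after LPS in KO, and of 17056 and 13140 CPM in WT. Their part in the results for the clock genes was not tested.

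The 4 WT libraries of number 2 gave the reverse. Dbp was at 1.30 and 0.568 CPM in the pair labelled ns and at 17.8 and 12.6 CPM in the pair labelled LPS. Nr1d2 was at 5.53 and 7.49 CPM and at 81.2 and 123 CPM in the same order, and Tef at 21.3 and 6.85 CPM and at 148 and 48.5 CPM. By label, LPS against ns in these libraries gave 4.03 ± 0.70 for Dbp (adjusted p = 0.00043 by edgeR), 3.95 ± 0.61 for Nr1d2 (adjusted p = 0.00012), 2.81 ± 0.67 for Tef (adjusted p = 0.0081) and 2.59 ± 0.56 for Per3 (adjusted p = 0.0038), beside 7.29% of all genes called. Nr1d1 had 3.79 ± 1.35 and was not called by edgeR (adjusted p = 0.085), where its unadjusted p was under 0.05. DESeq2 called all 5 of these genes, Nr1d1 included, beside 2160 of 17954 genes. The library labelled WT ns 5 and the library labelled WT LPS 6 are also among those high in mitochondrial counts, and without them 1 library remained on each side, which is assumed to vary like the other groups. In that fit Nr1d1 had 3.98 ± 0.80 (adjusted p = 0.0019 by edgeR) and Dbp 3.77 ± 0.71 (adjusted p = 0.0012), beside 14.7% of all genes called. With all libraries placed by their labels, 0 of the 9 genes were called in WT by edgeR, 2 (Per3 and Tef) had an unadjusted p under 0.05, and the value for Dbp was -1.01 ± 0.58. DESeq2 was not run in that placement. In that placement 0 of 15857 genes (0.0%) were called in WT, and the same 5 clock genes were called in KO, beside 22.3% of all genes.

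Other genes of the pathway were taken from a list of 24, of which 22 were tested in the LPS experiment. In KO 4 were higher and 5 lower, beside 11.9% and 14.2% of all genes, and in WT 3 were higher and 5 lower, beside 13.5% and 14.6%. Hlf, the third PAR bZIP factor, fell by 4.39 ± 0.35 on the log2 scale in KO (adjusted p = 1.5e-10 by edgeR) and by 4.66 ± 0.41 in WT (adjusted p = 2e-09), with medians of 25.3 and 1.04 CPM in KO ns and KO LPS and of 19.2 and 0.525 CPM in WT. Rora, an activator at the elements that the REV-ERB proteins repress, fell by 1.75 ± 0.26 and 1.86 ± 0.30. Nfil3, the repressor at D-boxes, rose by 1.83 ± 0.41 in KO (adjusted p = 0.0013) and 1.81 ± 0.47 in WT (adjusted p = 0.0047), with medians of 9.58 and 28.1 CPM in KO and 11.8 and 36.6 CPM in WT. Timeless, a replication fork factor named for its fly relative, rose by 3.03 ± 0.52 in KO and 1.66 ± 0.56 in WT. Fbxw11, a ubiquitin ligase subunit that targets PER proteins, fell by 0.32 ± 0.09 in KO and by 0.28 ± 0.10 in WT (adjusted p = 0.042 by edgeR), and Noct, a circadian phosphatase, rose by 1.29 ± 0.37 in KO. In WT, Btrc, the relative of Fbxw11, fell by 0.53 ± 0.15 and the kinase gene Gsk3b by 0.53 ± 0.16, whereas Nampt, an NAD-synthesis enzyme, rose by 0.98 ± 0.29. Bmal1, the partner of CLOCK, had 0.02 ± 0.14 in KO and 0.00 ± 0.16 in WT, and Per1, an early-induced period gene, had 0.75 ± 0.59 and 1.16 ± 0.68. None of these was called with all libraries in the fit, and both genes are named here for their place in the loop. Per1 was called by edgeR as higher in WT without the 6 libraries high in mitochondrial counts, beside 49.6% of all genes. It was also called as higher in WT within set 1 alone, beside 38.4%. None of the 22 genes had an adjusted p under 0.05 for the genotype-by-LPS interaction in edgeR. Without the 6 libraries high in mitochondrial counts, 23 genes of the list were tested for LPS against ns. Of these, 12 were called in KO (4 higher and 8 lower) and 13 in WT (4 higher and 9 lower). The shares of all genes called in that fit were near these, at 49.9% in KO and 49.6% in WT.

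The second question was whether loss of P2RY12 went with a difference in the clock genes. In the LPS experiment 0 of the 9 genes were called by edgeR or DESeq2 for KO against WT at ns, beside 0.0891% of all genes, or at LPS, beside 0.078%, or for the interaction, beside 0.0%. An unadjusted p under 0.05 was reached by 0 of them at ns, by 3 at LPS and by 0 for the interaction, in edgeR and in DESeq2. On the log2 scale those 3 had -0.83 ± 0.35 for Dbp (adjusted p = 0.69 by edgeR), -0.82 ± 0.37 for Cry1 (adjusted p = 0.76) and -1.02 ± 0.49 for Per2 (adjusted p = 0.81). The levels after LPS overlapped between genotypes for all 3, since Dbp ran from 0.409 to 2.31 CPM in KO and from 1.02 to 3.78 CPM in WT. Without the libraries high in mitochondrial counts the values were -0.49 ± 0.29 for Dbp, -0.47 ± 0.22 for Cry1 and -0.93 ± 0.32 for Per2, none called, beside 0.252% of all genes; in that edgeR fit an unadjusted p under 0.05 was reached by 2 genes at LPS (Cry1 and Per2) and by 1 at ns (Clock). At ns, Dbp had -0.17 ± 0.33, with a 95% interval from -0.81 to 0.48, and Tef had -0.19 ± 0.33, from -0.85 to 0.46. For the interaction, which asks whether the LPS difference was the same in both genotypes, Dbp had -0.67 ± 0.48, from -1.60 to 0.27, and Per3 had 0.23 ± 0.40, from -0.56 to 1.02. Among the 22 other pathway genes tested, edgeR called 0 for KO against WT at ns and 0 at LPS. These comparisons share samples with each other and with the LPS comparisons above. With all libraries placed by their labels, edgeR again called 0 of the 9 genes at ns, at LPS or for the interaction, beside 18, 20 and 0 of 15857 genes. Dbp and Nr1d2 then had an unadjusted p under 0.05 at LPS and for the interaction. The median log2 fold change of the 9 genes was then -0.91 at LPS and -0.81 for the interaction, against -0.14 and -0.36 in the main fit.

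**Figure D3:**
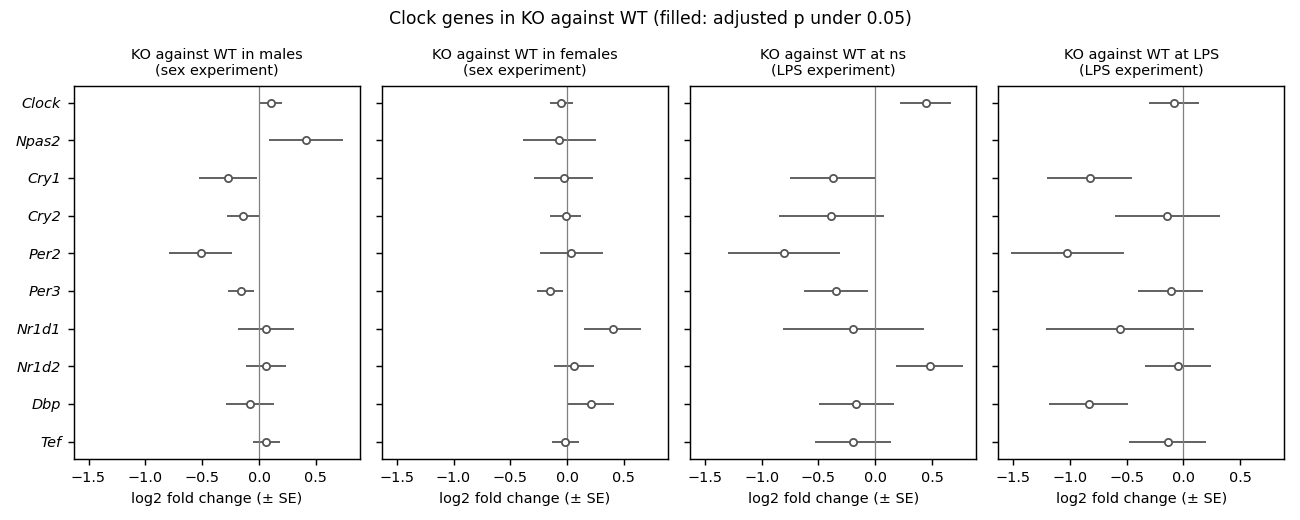
Log2 fold change of KO against WT with its standard error for the clock genes in males and females of the sex experiment and at ns and LPS in the LPS experiment (Npas2 was not tested in the latter). All symbols are open: none of the genes reached an adjusted p under 0.05, and the widest bars (Nr1d1) are in the LPS experiment.

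In the sex experiment all 10 genes were tested among 31709, and 0 were called by edgeR or DESeq2 for KO against WT in males, in females or averaged over the sexes, for the sex-by-genotype interaction, or for female against male WT. The matching shares of all genes called by edgeR were 0.00946%, 0.164%, 0.432%, 0.0% and 0.0725%. An unadjusted p under 0.05 was reached by 0 of the 10 genes in the first 4 of these comparisons and by 2 in female against male WT. Averaged over the sexes, the estimates were small for Clock (0.02 ± 0.07, 95% interval -0.11 to 0.16), Tef (0.02 ± 0.08, -0.14 to 0.19), Dbp (0.06 ± 0.15, -0.23 to 0.35) and Nr1d2 (0.06 ± 0.12, -0.18 to 0.30). The interval was widest for Npas2, at -0.28 to 0.62. P2ry12 itself differed by -3.42 ± 0.12 in the same fit.

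Npas2, which encodes a protein that can stand in for CLOCK, was at 0.855, 1.01, 1.36 and 1.91 CPM in the 4 male WT animals and at 1.60, 1.80, 2.67 and 3.18 CPM in the 4 female WT animals. The 2 groups overlapped. Female against male WT gave 0.84 ± 0.34 for Npas2 (adjusted p = 0.62 by edgeR), and 0.53 ± 0.37 without male WT 5 and female WT 2, the animals highest in neutrophil markers. Per3 was at 22.5, 23.96, 25.4 and 27.7 CPM in male WT and at 17.3, 19.5, 21.9 and 24.3 CPM in female WT, a log2 fold change of -0.26 ± 0.12 (adjusted p = 0.66 by edgeR). In KO animals Per3 was at 19.4 to 25.2 CPM in males and at 16.1 to 23.3 CPM in females. Again the groups overlapped.

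**Figure D4:**
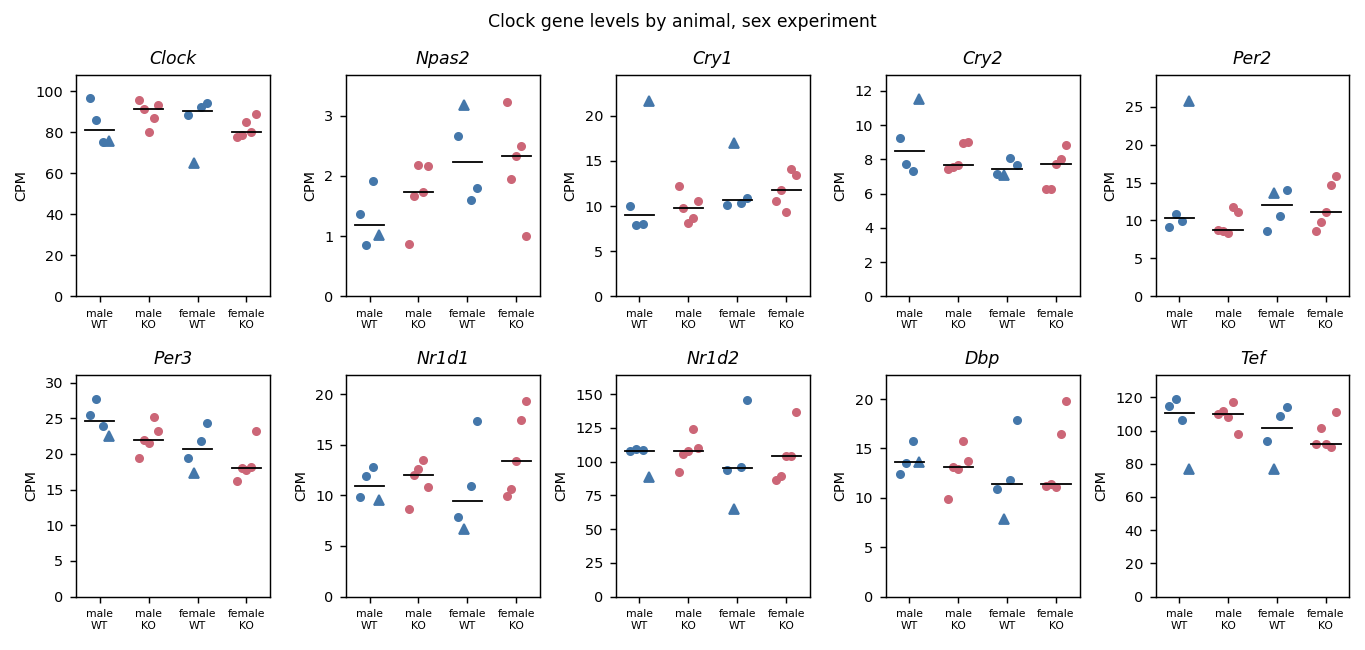
Levels of the 10 clock genes in CPM by animal in the sex experiment, WT in blue and KO in red, with a bar at each group's median and triangles for male WT 5 and female WT 2, the animals highest in neutrophil markers. WT and KO overlap within each sex for every gene, and male WT 5 is the highest male animal for Cry1, Cry2 and Per2.

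Animals male WT 5 and female WT 2 stood apart by their neutrophil markers, which summed to 40381 and 23835 CPM against 611 to 6417 CPM in the other 16. Both were the lowest of their group in Nr1d2 (88.4 and 64.6 CPM) and Nr1d1 (9.5 and 6.70 CPM) and the highest in Cry1 (21.7 and 17.04 CPM). Per2 was at 25.7 CPM in male WT 5, against 9.09 to 10.8 CPM in the other male WT animals. Without both animals edgeR called 0 of the 10 genes in each of the 5 comparisons, beside 0.0125%, 0.602%, 0.969%, 0.0% and 0.0564% of all genes in the order above. Per3 averaged over the sexes had an unadjusted p of 0.012 there (-0.21 ± 0.08, adjusted p = 0.38 by edgeR), against -0.15 ± 0.08 with them (adjusted p = 0.59). The value for Per2 in males moved from -0.51 ± 0.28 to -0.03 ± 0.20. The value for Cry1 in males moved from -0.27 ± 0.26 to 0.19 ± 0.14. Of the 24 other pathway genes, 1 was called without both animals: Ciart, a repressor, higher in KO averaged over the sexes. Ciart was called there in 3 of 24 alternative fits, among them the fit with a block for the animal numbers. Its log2 fold changes over the 24 fits ran from 0.43 to 0.69, with a lowest adjusted p of 0.0209. The part of other cell types in these levels was not tested.

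Animals of one group did not have one clock level. Dbp was at 7.87, 10.9, 11.8 and 17.9 CPM in female WT and at 11.1, 11.2, 11.4, 16.4 and 19.8 CPM in female KO. Nr1d1 was at 6.70, 7.85, 11.0 and 17.4 CPM and at 9.91, 10.6, 13.4, 17.5 and 19.3 CPM in the same groups, and female WT 5 and female KO 5, each the highest of its group in Dbp, were also the highest of their groups in Nr1d1 and Nr1d2. In males the ranges were narrower, with Dbp at 9.89 to 15.8 CPM over both genotypes. With group means removed, Nr1d1 followed Dbp across the 18 animals with a Pearson r of 0.92 (permutation p within groups 6e-05, adjusted over 9 genes 0.00054) and a Spearman rho of 0.89 (permutation p 0.00021, adjusted 0.00189). For Nr1d2 r was 0.89 (permutation p 0.00042, adjusted 0.00126) with rho 0.73 (permutation p 0.00248, adjusted 0.00744), and for Per3 r was 0.82 (permutation p 0.00042, adjusted 0.00126) with rho 0.76 (permutation p 0.00179, adjusted 0.00744). Leaving out the 2 animals farthest from the median of Dbp gave r of 0.87, 0.78 and 0.68 for Nr1d1, Nr1d2 and Per3. The other 6 genes did not pass: r was 0.47 for Tef, 0.42 for Cry2, 0.38 for Per2, 0.37 for Clock, -0.14 for Cry1 and -0.29 for Npas2, with adjusted p-values in the permutation test from 0.121 to 0.532. Without male WT 5 and female WT 2, Per2 also followed Dbp, with r of 0.86 (permutation p 0.00099, adjusted 0.00297) and rho of 0.78 (permutation p 0.00749, adjusted 0.0169), against r of 0.38 with them. Values of 1 animal come from 1 library and share its depth, and the time of day of each animal is not given in the sources used here. Animals female WT 5 and female KO 5 share a number, and the permutations did not pair animals by number. The permutation test was not run on genes outside the 10, so the share of all genes that would pass it is not known.

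**Figure D5:**
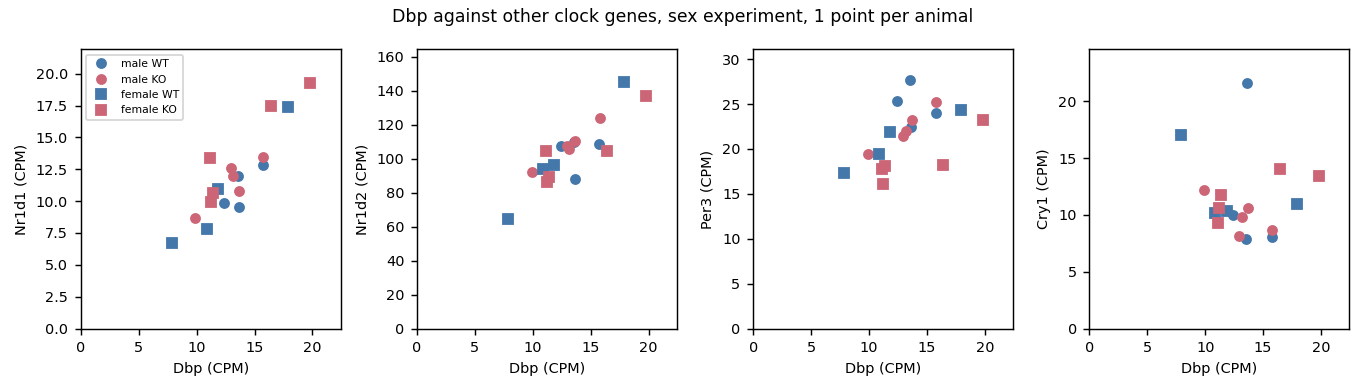
Dbp against Nr1d1, Nr1d2, Per3 and Cry1 in CPM in the sex experiment, 1 point per animal, with circles for males, squares for females, blue for WT and red for KO. Animals high in Dbp are high in Nr1d1 and Nr1d2, and the 2 highest Cry1 values belong to male WT 5 and female WT 2.

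The same measure was taken in the LPS experiment, with group and set means removed. For Nr1d2 and Cry1 it depended on the libraries high in mitochondrial counts. Over the 26 samples without them, Tef followed Dbp with r of 0.67 (permutation p 0.00054, adjusted over 8 genes 0.00432) and rho of 0.75 (permutation p 6e-05, adjusted 0.00048). Nr1d1 had r of 0.63 (permutation p 0.00114, adjusted 0.00456) with rho 0.56 (permutation p 0.00944, adjusted 0.0189), and Cry2 had r of 0.59 (permutation p 0.0022, adjusted 0.00587) with rho 0.66 (permutation p 0.00173, adjusted 0.00692). Leaving out the 2 samples farthest in Dbp gave r of 0.61, 0.64 and 0.61 for Tef, Nr1d1 and Cry2. Per2 had r of 0.56 (permutation p 0.00628, adjusted 0.0101) with rho 0.53 (permutation p 0.0163, adjusted 0.0261). Per3 had r of 0.55 (permutation p 0.0171, adjusted 0.0229) with rho 0.56 (permutation p 0.00911, adjusted 0.0189). Clock had r of 0.05 and Cry1 0.20. In these 26 samples WT ns 1 and WT LPS 1 were each alone in their group, so they had no deviation from its mean and could not be permuted. The permutations were within groups and exchanged samples between the sets. Over all 32 samples r was 0.58 for Tef, 0.51 for Nr1d1, 0.50 for Cry2, 0.65 for Per2 and 0.54 for Per3. Their adjusted p-values in the permutation test of r ran from 0.00132 to 0.0169. By contrast, Nr1d2 had r of 0.16 over all 32 samples, against 0.58 without the libraries high in mitochondrial counts (permutation p 0.0055, adjusted 0.0101). Cry1 had 0.63, against 0.20. Here too the share of all genes that would pass the permutation test is not known.

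Outside the 10 genes, those whose within-group pattern was most like that of Dbp by Spearman rho over the 18 animals were Dusp22 (0.93), Nrap (0.90), Igf1, Gpr31b and Lclat1 (each 0.87). All 5 were above Nr1d2 (0.73) and Per3 (0.76), and Dusp22 and Nrap were also above Nr1d1 (0.89). The most opposite were Afdn (-0.87), Gfod2 (-0.85), D430019H16Rik (-0.85), A230072E10Rik (-0.81) and Gm52764 (-0.80). In the 32 samples of the LPS experiment they were Ildr1 (0.76), Acot6 (0.74), Zfp566 (0.73), Mllt11 and Rnaseh1 (each 0.72), and at the other end Klra1 (-0.69), Tespa1, Ecm2 and Gm43294 (-0.66 each) and Gins2 (-0.65). Over the 26 samples without the libraries high in mitochondrial counts all 10 were nearer to 0, from 0.32 (Rnaseh1) to 0.61 (Acot6) for the first 5 and from -0.53 (Tespa1) to -0.35 (Gm43294) for the others. No gene was in the lists of both experiments.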

How the data were processed

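The deposited tables hold whole-number read counts per gene, with no normalization by the authors. FastQC, STAR 2.6.1, featureCounts, Subread, DESeq2 and build GRCm39 are named in the submitters' processing notes, and a strand setting is not given in the sources used here. Gene lengths equal the whole gene span per the file headers of the sex table, where 79.0% to 89.2% of low counts (20 or fewer) were even, against 39.7% to 45.6% in the LPS table, so levels are not compared between tables. Of 24 labelled sex libraries, 6 repeats have no column and were not used here. Labels do not say that samples are separate cultures or litters, so p-values measure the spread between samples.

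Counts were scaled by TMM, filtered with filterByExpr and tested with edgeR 4.0.16 (quasi-likelihood F test, robust) in R 4.3.3, with Benjamini-Hochberg adjustment over all genes tested and a threshold of 0.05. Each experiment was fitted with 1 mean per group, and the LPS experiment also with library set as a covariate and the WT libraries of number 2 as groups of their own. DESeq2 1.42.0 was an alternative. CPM is the count relative to the TMM-scaled library size, and a standard error is the log2 fold change divided by the square root of F. Intervals are 95% normal intervals. Correlations used log2 CPM with 0.5 added and 100000 permutations within groups, two-sided. One marker of the microglial list is not reported here and is not in its sums. The genes of the rule and the lists were chosen with earlier results of these data known. All clock genes of the rule are described, other clock genes called are named by smallest adjusted p, and the 5 most and least similar genes to Dbp are named. Fits without libraries high in mitochondrial counts, without both neutrophil-high animals, and of the WT libraries of number 2 were chosen after seeing the data.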

Additional observations from a re-analysis of the deposited data

Results flagged for a closer look

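Single samples lay far from the rest of their group in 12 of 76 gene and group combinations by Dixon's test. For independent, normally distributed values chance alone does this in about 1 of 20. CPM need not be so distributed, and genes of 1 library are not independent. The share of all genes flagged by this rule was not computed, so the 12 are not read as a result about the clock genes. In female KO 5 Per3 was at 23.3 CPM, against at most 18.2 in the other female KO animals, and in female WT 2 Cry1 was at 17.04 CPM, against at most 10.9. In male WT 5 Per2 was at 25.7 CPM, Cry1 at 21.7 CPM and Nr1d2 at 88.4 CPM, the last below the other 3 at 107.7 or more. Male WT 5 and female WT 2 are the animals highest in neutrophil markers. In the LPS experiment, Clock was at 141 CPM and Cry2 at 0.409 CPM in KO LPS 5, Clock at 134 CPM and Nr1d2 at 216 CPM in KO ns 6, and Clock at 160 CPM in WT LPS 7. All 3 of these libraries are high in mitochondrial counts. Dbp was at 25.3 CPM in KO ns 8 and Cry2 at 13.7 CPM in WT ns 4, neither of them high in mitochondrial counts.

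The difference between LPS and ns, by label, was not the same in the WT libraries of number 2 as in the other WT libraries. By edgeR's test of that difference in log2 fold change it was 6.84 for Dbp, 6.61 for Nr1d2, 6.46 for Nr1d1, 5.34 for Tef and 4.88 for Per3, beside 25.5% of all genes called.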

How the results depend on the processing

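Each count of called genes was refitted with DESeq2, RLE scaling, no filter, a minimum mean of 5 CPM, a call rule that also asks for a log2 difference of 1 or more, and other sample sets. For LPS against ns, set 2 alone gave 3 in KO and 1 in WT, and all libraries placed by their labels gave 0 in WT. For the 10 called results, 109 of 120 alternatives kept the direction and the call, 11 lost the call and 0 reversed. Among 85 uncalled results, 9 of 1615 alternatives were called. Leaving out each animal of the sex experiment in turn gave 0 to 0 called genes in the 5 comparisons. With a replicate block for the shared numbers, 6 genes were called in KO, adding Per2, 5 in WT, and 0 in each comparison of genotypes or sexes. Deviations of same-numbered samples correlated by 0.205 on average over 8 pairs of the sex experiment (-0.167 to 0.376). Differently numbered samples there had -0.0479 over 32 pairs (-0.524 to 0.441). In the LPS experiment the averages were 0.0771 over 35 same-numbered pairs (lowest -0.50) and -0.0118 over 111 other pairs (-0.829 to 0.759). Same-numbered samples were more alike on average in both experiments, with overlapping ranges. Whether the numbers pair samples is not settled by these values, and the main fits did not pair them. Over all genes DESeq2 called more than edgeR: 24 against 3 in males, 213 against 52 in females, 359 against 137 averaged, 153 against 23 in female against male WT, 52 against 16 at ns, 41 against 14 at LPS, 3 against 0 for the genotype-by-LPS interaction and 2160 against 1308 in the WT libraries of number 2. Counts of Nr1d1 from 1 to 194 in the WT LPS samples and from 2 to 48 in the KO LPS samples limit its precision.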
